A study of Sus scrofa domesticus with 4 samples.

Results

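The 10 genes followed act in inflammatory signalling. They were the interleukin family genes IL1A, IL1B, IL1RN, IL6 and IL18, and the cytokine TNF. The others were the colony-stimulating factors CSF2 and CSF3, and the NF-kB target genes NFKBIA and ICAM1. The members were all probes, control probes aside, whose accession is a RefSeq mRNA of one of these pig genes. Of the 10 genes, 9 had a probe, with 14 probes between them out of 43603 on the array, and 13 of the 14 were bright enough to test. No accession was matched to IL1RN, the antagonist of the IL-1 receptor, and it was not analysed here. The samples were slices of myometrium, the muscle layer of the uterus, from mature gilts (Large White x Polish Landrace, aged 7 to 8 months) on days 15 to 16 of pregnancy. Slices were preincubated for 2 h and then kept for 24 h with 10 nM orexin B, a hypothalamic neuropeptide that acts on G protein-coupled orexin receptors, or for the same time with no addition. RNA of both kinds of slice was hybridised together on each of 4 Agilent arrays of 2 colours. Per the labels there were 4 gilts and 4 experiments with duplicate cultures. The labels do not say which gilt each array holds or whether duplicates were pooled, so every p-value rests on the variation among these arrays, which may in part be technical.

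IL-1 alpha, IL-1 beta and TNF are the early alarm signals of inflammation. Their receptors, through adaptor proteins and the IKK kinases, release the transcription factor NF-kB from its inhibitor IκBα, the product of NFKBIA. NF-kB then switches on further cytokines (IL6, CSF2, CSF3), adhesion molecules such as ICAM1, and NFKBIA itself, which closes a feedback loop. In the uterus these cytokines are known from implantation, when the pig conceptus itself releases a form of IL-1 beta, and from labour, when IL-1, IL-6 and TNF accompany contraction of the myometrium.

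Ratios are given as log2 of orexin B over untreated, each mean with limma's moderated standard error (n = 4 arrays). The dyes were swapped: orexin B RNA was labelled with Cy5 for arrays 1 and 3, and with Cy3 for arrays 2 and 4. Arrays 2, 3 and 4 shared a slide, and array 1 lay on another. Of all probes, 19876 were tested. Between 48.7% and 54.2% of probes were well above background in the orexin B channel, against 37.6% to 58.2% in the untreated channel. Array 1 had the highest share in the orexin B channel and the lowest in the untreated channel. Ratios of all tested probes correlated weakly between arrays, with r from -0.18 to 0.36 as a description across probes. The 7 measured smooth muscle genes, among them ACTA2 (actin), DES (desmin) and CNN1 (calponin), were well above background on all 4 arrays in both channels. The number of arrays limits the precision.

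All 9 measured cytokine and NF-kB target genes had a mean ratio above 0, which 53.8% of the 1959 tested genes with a name and 54.1% of all tested probes also had. The median of the 9 was 0.36, against 0.02 over the named genes. After Benjamini-Hochberg adjustment over all tested probes limma called 0 of the 9 members at 0.05, and 0% of all probes (smallest adjusted p = 0.596). An unmoderated test on each probe's 4 ratios also called none. At an unadjusted p under 0.05, 3 members were higher with orexin B: ICAM1, IL1A and CSF3. Of all tested probes 4.31% were higher at that threshold and 3.41% lower, while 6.23% of the named genes were higher and 4.24% lower. Ratios were above 0 on all 4 arrays for 2 members, ICAM1 and CSF3, against 8.37% of named genes and 8.92% of all probes. CSF3 met both rules by its brighter probe only. Its second probe had a ratio of -0.048 on array 1 and an unadjusted p of 0.064 (limma).

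**Figure D1:**
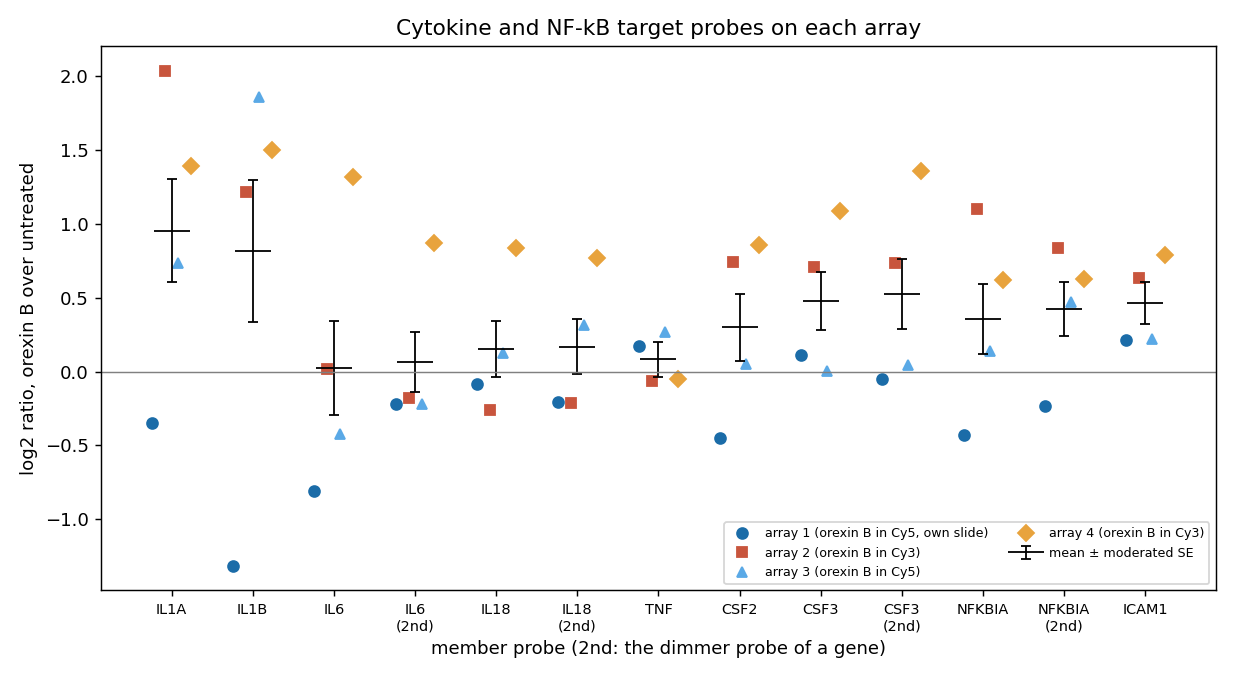
Log2 ratio of orexin B over untreated (vertical axis) for each of the 13 tested probes (horizontal axis), with 1 symbol per array and a black mark for the mean with its moderated standard error. Array 1 is the lowest point for 6 of the 9 genes and array 4 the highest for 5; the ICAM1 points all lie above 0.

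The 4 arrays did not move together in these genes. The median ratio of the 9 genes was -0.35, 0.71, 0.14 and 0.86 on arrays 1 to 4, while the median over all named genes lay between -0.09 and 0.05. On array 1 only 3 of the 9 genes had a ratio above 0, against 7, 8 and 8 on arrays 2, 3 and 4. Array 1 gave the lowest ratio for 6 genes, and array 4 gave the highest for 5. Without array 1 the median of the members was 0.55, and without array 4 it was 0.27.

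The IL-1 ligands had the largest mean ratios among the members. IL1A encodes IL-1 alpha, which is held in cells and released on damage. The log2 level of IL1A was 9.01, 11.4, 9.33 and 10.1 in orexin B slices on arrays 1 to 4, against 9.36, 9.40, 8.60 and 8.67 in untreated slices. The groups overlapped, and array 1 was the only one whose untreated level was the higher of its pair. The IL1A ratios were -0.35, 2.04, 0.73 and 1.39, with a mean of 0.95 ± 0.35, or 1.94-fold (adjusted p = 0.607, limma). Without array 2 the mean was 0.59, and without array 1 it was 1.39.

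IL1B encodes IL-1 beta, which is made as a precursor and cleaved by the inflammasome. Its log2 level was 11.0, 11.6, 11.2 and 11.4 in orexin B slices, against 12.3, 10.4, 9.39 and 9.87 in untreated slices. The orexin B levels spanned 0.61 and the untreated levels 2.93, so the arrays differed mostly in the untreated channel. The highest value of either group was the untreated level of array 1, and the other untreated levels lay below every orexin B level. The IL1B ratios were -1.31, 1.22, 1.86 and 1.50, with a mean of 0.82 ± 0.48, or 1.76-fold (adjusted p = 0.731, limma). Without array 1, which leaves the arrays of the shared slide, the mean was 1.52 (adjusted p = 0.763, limma), and without array 3 it was 0.47. Array 1 is alone on its slide, so slide and array cannot be told apart for this gene.

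Pigs carry a close copy of IL1B, named IL1B2, whose product the elongating conceptus secretes. Probes of near-identical genes can take up each other's RNA, so values of IL1B and IL1B2 are uncertain as to which copy they report. IL1B2 had 3 probes. The brightest gave ratios of -0.09, 0.48, 0.74 and 0.83, with a mean of 0.49 ± 0.17 (adjusted p = 0.596, limma). Array 1 was again the lowest and the only one below 0, but by less than for IL1B. A second IL1B2 probe gave 0.18 ± 0.20 and was well above background in the untreated channel on 1 of 4 arrays. The third was not well above background in any channel. In the Sscrofa11.1 RefSeq annotation IL1A and IL1B are next to each other.

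IL6, IL18 and TNF showed no shared direction over the arrays. IL6 encodes interleukin 6, a cytokine of fever and the acute phase response. Its log2 level was 12.7, 14.4, 13.1 and 13.7 in orexin B slices, against 13.5, 14.4, 13.5 and 12.3 in untreated slices. The groups overlapped fully, and array 2 was the highest in both. The IL6 ratios were -0.81, 0.014, -0.42 and 1.32, with a mean of 0.025 ± 0.32 (adjusted p = 0.991). The second IL6 probe gave -0.22, -0.18, -0.22 and 0.87, with a mean of 0.064 ± 0.20. With both probes array 4 stood apart from the others; without it the means were -0.41 and -0.20. When arrays were centred on their medians and no loess was applied, the IL6 mean was -0.11, so its direction was not settled.

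IL18 encodes interleukin 18, which like IL-1 beta is cleaved by caspase-1 and which drives interferon gamma production. Its log2 level was 11.3, 9.63, 9.82 and 11.1 in orexin B slices, against 11.4, 9.89, 9.70 and 10.3 in untreated slices. Arrays 1 and 4 were the higher ones in both groups, and the groups overlapped. The IL18 ratios were -0.09, -0.26, 0.12 and 0.84, with a mean of 0.15 ± 0.19 (adjusted p = 0.867). The second IL18 probe gave 0.17 ± 0.19. Without array 4 the IL18 mean was -0.075.

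TNF encodes tumour necrosis factor. It had the smallest spread of the members, with log2 levels of 9.20, 9.03, 8.85 and 8.90 in orexin B slices, against 9.02, 9.09, 8.58 and 8.95 in untreated slices. The 2 ranges overlapped and every pair of levels differed by less than 0.3. The TNF ratios were 0.18, -0.061, 0.27 and -0.048, with a mean of 0.083 ± 0.12 (adjusted p = 0.887). The other TNF probe was not well above background in any channel (0 of 4 arrays each) and was not tested. In the Sscrofa11.1 annotation TNF lies between LTA and LTB, which encode the lymphotoxins.

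The colony-stimulating factors varied more between arrays than between orexin B and untreated slices. CSF2 encodes GM-CSF, a growth and activation factor of granulocytes and macrophages. Its log2 level was 9.42, 11.9, 9.47 and 9.14 in orexin B slices, against 9.87, 11.2, 9.42 and 8.28 in untreated slices. Array 2 was more than 1 log2 unit above the others in both channels. The CSF2 ratios were -0.45, 0.74, 0.051 and 0.86, with a mean of 0.30 ± 0.23 (adjusted p = 0.776). Without array 4 the CSF2 mean was 0.11, and without array 1 it was 0.55.

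CSF3 encodes G-CSF, which drives the production and release of neutrophils. Its log2 level was 8.92, 11.4, 8.67 and 9.78 in orexin B slices, against 8.81, 10.66, 8.66 and 8.69 in untreated slices. Array 2 was again the highest in both channels, and the other arrays were close together in the untreated channel. The CSF3 ratios were 0.11, 0.71, 0.0037 and 1.08, with a mean of 0.48 ± 0.20, or 1.39-fold (adjusted p = 0.641, limma). Its excess therefore came from arrays 2 and 4, with arrays 1 and 3 near 0, and without array 4 the mean was 0.27. The second CSF3 probe gave 0.52 ± 0.24 and was well above background in the untreated channel on 3 of 4 arrays. In the Sscrofa11.1 annotation CSF3 lies between MED24 and PSMD3.

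NFKBIA and ICAM1 stand downstream of NF-kB. The log2 level of NFKBIA was 15.4, 17.5, 16.5 and 16.0 in orexin B slices, against 15.9, 16.4, 16.3 and 15.4 in untreated slices. On array 1 the untreated level was the higher one, and on the other arrays the orexin B level was. The NFKBIA ratios were -0.43, 1.10, 0.14 and 0.62, with a mean of 0.36 ± 0.24 (adjusted p = 0.753). The second NFKBIA probe gave -0.23, 0.84, 0.47 and 0.62, with a mean of 0.42 ± 0.18. Without array 2 the NFKBIA mean was 0.11, and without array 1 it was 0.62.

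ICAM1 encodes an adhesion molecule that binds integrins on leukocytes. Its log2 level was 13.2, 13.9, 13.4 and 13.1 in orexin B slices, against 12.95, 13.2, 13.2 and 12.3 in untreated slices. Every orexin B level was above its partner on the same array, although the ranges of the groups overlapped. The ICAM1 ratios were 0.21, 0.63, 0.22 and 0.79, with a mean of 0.46 ± 0.14, or 1.38-fold (adjusted p = 0.596, limma). Its means with 1 array left out lay between 0.35 and 0.55. An exact sign-flip test over 4 arrays cannot go below 0.125 when two-sided. ICAM1 and the brighter CSF3 probe were at that value (exact p = 0.125 each). IL1A gave an exact p of 0.250.

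**Figure D2:**
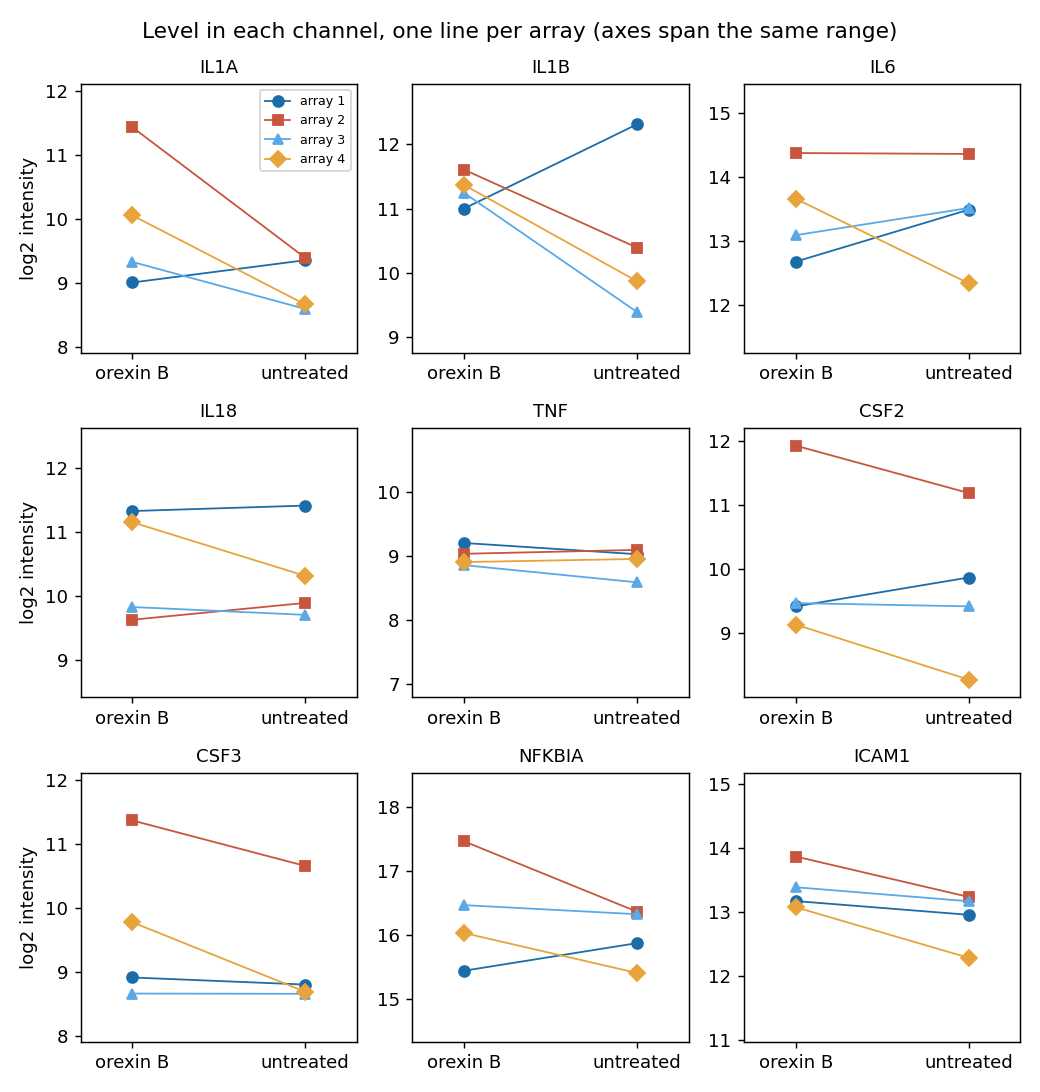
Log2 intensity of each gene in the orexin B channel (left) and the untreated channel (right) of each panel, with 1 line per array and vertical axes of equal span. Array 2 is the highest in both channels for most genes, and the IL1B lines of arrays 2 to 4 run opposite to that of array 1.

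Differences between arrays were large for most of these genes in the untreated channel alone. The SD of the untreated log2 level over 4 arrays was 1.28 for IL1B, 1.20 for CSF2, 0.97 for CSF3, 0.83 for IL6 and 0.76 for IL18, against a median of 0.29 over all tested probes. These 5 SDs lay between the 96.2 and 99.6 percentiles of tested probes, ICAM1, IL1A and NFKBIA between 76.5 and 78.8, and TNF at 34.0. For 7 of the 9 genes the untreated SD was larger than the mean ratio, and IL1A and ICAM1 were the exceptions. Array 2 had the highest level of 7 genes in the orexin B channel and of 7 in the untreated channel, and array 1 had the highest of the other 2 in each. The lowest untreated levels were all on arrays 3 and 4. Levels were set between arrays by making the average intensity distributions alike, so these differences are relative to each array's other probes.

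The 4 members with a pair of tested probes gave similar means from both probes. The means of the brighter and the dimmer probe were 0.025 and 0.064 for IL6, 0.15 and 0.17 for IL18, 0.48 and 0.52 for CSF3, and 0.36 and 0.42 for NFKBIA. The largest gap between probes of a member on an array was 0.59, for IL6 on array 1. The ratios had the same sign on 4 arrays for IL18 and NFKBIA and on 3 for IL6 and CSF3. For each of these members the arrays differed by more than the probes did.

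The ratios also differed by dye orientation. With orexin B RNA in Cy3 (arrays 2 and 4) the mean ratios were 1.71 for IL1A, 0.90 for CSF3, 0.86 for NFKBIA, 0.80 for CSF2 and 0.67 for IL6. With orexin B RNA in Cy5 (arrays 1 and 3) they were 0.19 for IL1A, 0.057 for CSF3, -0.14 for NFKBIA, -0.20 for CSF2 and -0.62 for IL6. By the probes that represent them, these 5 genes had a dye term with an unadjusted p under 0.05. In this direction 7.01% of named genes and 6.74% of all probes had one. None passed after adjustment (smallest adjusted p among members = 0.253). Among second probes, that of CSF3 was also under 0.05 (unadjusted p = 0.0072, limma), while those of IL6 and NFKBIA were not (0.16 and 0.078). Of the 9 genes, 8 had the higher ratio with orexin B RNA in Cy3, against 45.7% of named genes and 51.2% of all probes, and TNF did not. The labels do not tie arrays to gilts or experiments, so any difference between those of arrays 1 and 3 and those of arrays 2 and 4 cannot be told apart from the dye. The means of IL1A, IL1B, IL18 and ICAM1 were above 0 in both orientations, and so was that of CSF3 by its brighter probe. For IL1A, IL1B and IL18 the Cy5 mean joined a ratio below 0 on array 1 to one above 0 on array 3. Those of IL1B were -1.31 and 1.86. IL18 also had ratios of opposite sign on arrays 2 and 4, at -0.26 and 0.84. Only ICAM1 and the brighter CSF3 probe were above 0 on both arrays of each orientation. With orexin B RNA in Cy5 the second probes had means of -0.0002 for CSF3 and 0.12 for NFKBIA.

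**Figure D3:**
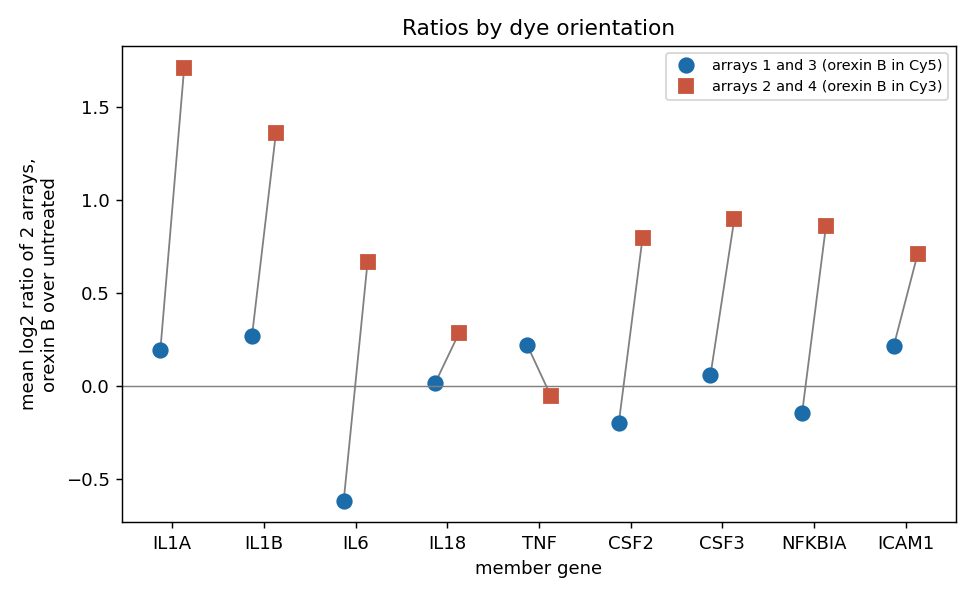
Mean log2 ratio of orexin B over untreated (vertical axis) for each gene over arrays 1 and 3, with orexin B RNA in Cy5 (circles), and arrays 2 and 4, with it in Cy3 (squares), 2 arrays per point. The squares lie above the circles for 8 of the 9 genes, TNF being the exception.

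With a dye term in the fit, 4 members had an unadjusted p under 0.05, IL1A, ICAM1, CSF3 and NFKBIA, where 6.80% of all probes were higher; the smallest adjusted p among them was 0.198 in limma. On the shared slide alone 6 members did, IL1A, IL1B, CSF2, CSF3, NFKBIA and ICAM1, where 3.88% of all probes were higher; orexin B RNA was in Cy3 on 2 of those 3 arrays, and the smallest adjusted p among them was 0.763. Without array 4 the number was 0, where 2.27% of all probes were higher, and without array 2 it was 1, where 4.05% were. Another scaling also changed the number. It was 1 with Agilent's processed signals and 1 with median centring, where 4.85% and 0.865% of all probes were higher. The deposited series table, which holds nearly the same ratios as the processed signals, also gave 1, where 4.82% were. With slide as a random block it was 6, where 12.2% were higher. With ratios left as Cy5 over Cy3 on every array, which contrasts the dye orientations, 0 members were higher, where 4.23% of all probes were. IL6, CSF2 and NFKBIA were then lower at that threshold, as were 815 of 19876 probes.

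The rest of the pathway was read from lists of receptors, processing enzymes, NF-kB subunits, kinases, targets and brakes. Of the 121 listed genes outside the members, 50 were tested, 37 with a mean ratio above 0 and 13 below, and their median was 0.16, against 53.8% above 0 and a median of 0.02 over the named genes. At an unadjusted p under 0.05, 5 were higher and 1 lower, where 6.23% of named genes were higher and 4.24% lower, and 0 passed after adjustment in limma. None of the 4 receptor genes tested was among them. IL6ST, the signal-transducing chain shared by receptors of the IL-6 family, had a mean of 0.41 ± 0.18, with 1.06 on array 2, and 0.19 without that array. The TNF receptors TNFRSF1A and TNFRSF1B had 0.17 ± 0.18 and 0.17 ± 0.12, and ITGB2, the integrin chain of the ICAM1 receptors, had 0.039 ± 0.13.

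Among the 4 processing enzymes tested, ADAM17, the protease that sheds TNF from cells, was higher at that threshold. Its ratios were 0.37, 0.75, 0.34 and 0.17 on arrays 1 to 4, with a mean of 0.41 ± 0.13 (adjusted p = 0.596, limma). CAPN2, a calpain protease of the kind that cleaves the IL-1 alpha precursor, had -0.78, -0.43, -0.22 and -0.31, with a mean of -0.43 ± 0.13 (adjusted p = 0.596, limma). Both genes kept 1 sign on all 4 arrays, in opposite directions. ADAM10, a related sheddase, had 0.11 ± 0.12, and CTSB, the lysosomal protease cathepsin B, had 0.23 ± 0.17; without array 2 the ADAM10 mean was 0.022, and without array 4 the CTSB mean was 0.039.

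The NF-kB subunits that were tested, NFKB1 and RELA, were near 0. The list of NF-kB subunits and inhibitors held 11 genes, of which 3 were tested, NFKBIA among them. NFKB1, which encodes p105 and p50, had 0.13 ± 0.12, and RELA, which encodes p65, had -0.08 ± 0.15. Of 13 kinases and adaptors tested, 8 were above 0 and 5 below with a median of 0.01, and 0 had an unadjusted p under 0.05. The 4 with the smallest p were JAK2, STAT3, MAP3K7 and TRAF6, all with a mean above 0. JAK2, a kinase of cytokine receptors, had ratios of -0.05, 0.54, 1.39 and -0.08, with a mean of 0.45 ± 0.25, and 0.14 without array 3. STAT3, the transcription factor that IL-6 activates, had 0.026, 2.41, 0.41 and -0.07, with a mean of 0.69 ± 0.39, and 0.12 without array 2. In both, 1 array carried most of the mean. MAP3K7, the kinase TAK1 upstream of IKK, had 0.29 ± 0.17 (0.12 without array 2), and TRAF6, an adaptor of the IL-1 receptor, had 0.25 ± 0.14 (0.16 without array 3).

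Of 21 other NF-kB targets tested, 16 had a mean above 0 and 5 below, with a median of 0.26 (0.12 without array 4), and 4 were higher at an unadjusted p under 0.05, beside the 6.23% of named genes given above. CXCL8, the neutrophil attractant interleukin 8, had ratios of 0.42, 1.78, 0.47 and 3.97, with a mean of 1.66 ± 0.55, or 3.16-fold (adjusted p = 0.596, limma). The CXCL8 ratios were higher on arrays 2 and 4, with orexin B RNA in Cy3, than on arrays 1 and 3. Array 4 carried much of the mean, and without it the CXCL8 mean was 0.89. BCL2A1, a survival factor of leukocytes, had 0.28, 0.46, 1.28 and 0.47, with a mean of 0.62 ± 0.18 (adjusted p = 0.596, limma), and 0.40 without array 3. The matrix protease MMP9 had 0.50 ± 0.20 and the death ligand TNFSF10 had 0.88 ± 0.36, with 1 array at 0.022 for MMP9 and 1 at -0.21 for TNFSF10. Without array 3 the MMP9 mean was 0.26, and without array 2 the TNFSF10 mean was 0.41. TNFAIP3, the feedback inhibitor A20, was picked out after its values were seen because it acts beside NFKBIA; its ratios were -0.50, 0.92, 0.51 and 0.83, with a mean of 0.44 ± 0.24 (0.28 without array 2 and 0.75 without array 1), and array 1 was the lowest as for NFKBIA. The list's median was -0.38 on array 3, against 0.65 on array 4.

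Of 6 brakes on inflammation tested, 5 had a mean above 0, with a median of 0.21 (0.069 without array 3), and none had an unadjusted p under 0.05. ANXA1, which mediates effects of glucocorticoids, had 0.37 ± 0.19, with 1.00 on array 2 and a mean of 0.16 without it. TNIP1, a partner of A20, had 0.27 ± 0.14 (0.15 without array 4). The cytokines TGFB1 and IL10, which restrain immune cells, had 0.16 ± 0.14 and 0.26 ± 0.26; without array 1 the TGFB1 mean was 0.052, and without array 3 the IL10 mean was -0.0032. IL10 was well above background in the untreated channel on 3 of 4 arrays, so it was tested through the orexin B channel.

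**Figure D4:**
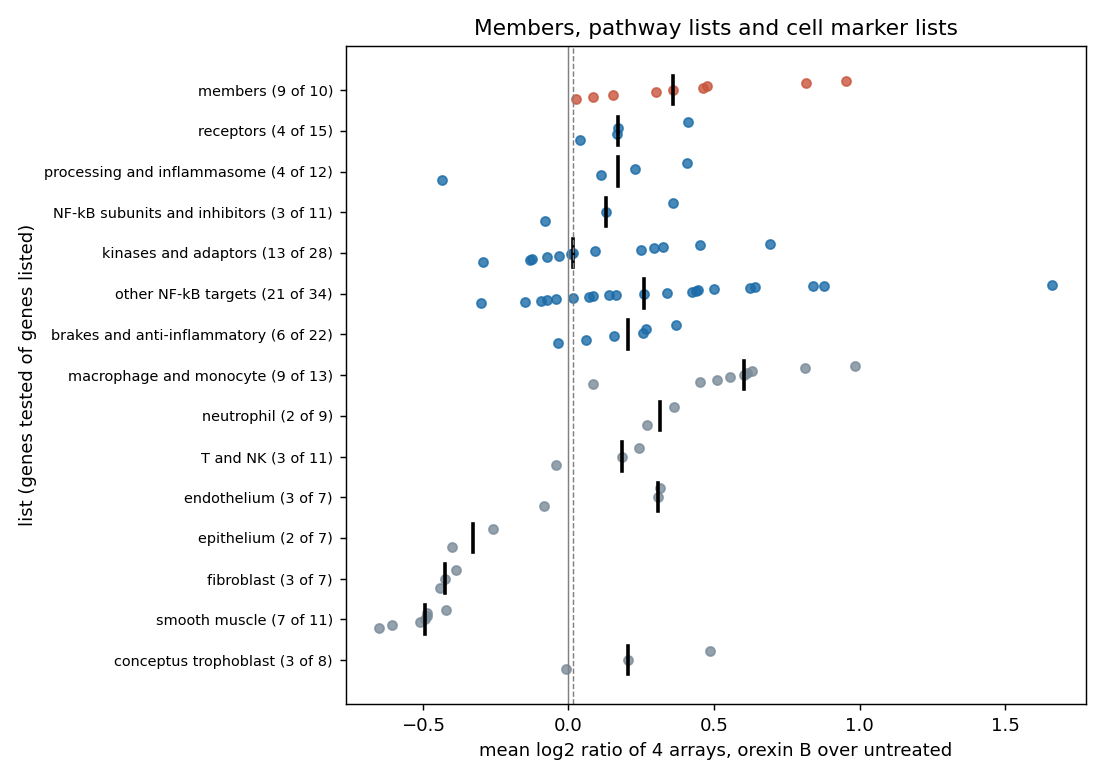
Mean log2 ratio of orexin B over untreated over 4 arrays (horizontal axis) for every tested gene (points) of the members, the pathway lists and the cell marker lists (rows, with genes tested of genes listed), with black bars at list medians and a dashed line at the median of named genes. The members and the macrophage markers lie above 0, and the smooth muscle markers lie below.

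Markers of the cell types a uterine slice can hold were read beside these values; in bulk tissue, fewer cells of a type and less RNA per cell cannot be told apart. All 9 tested markers of macrophages and monocytes, cells that make IL-1 and TNF, had a mean above 0, with a median of 0.60, and 8 had an unadjusted p under 0.05, where 6.23% of named genes and 4.31% of all probes were higher; 0 passed after adjustment in limma (adjusted p = 0.596 for AIF1 and for C1QB). Their summed log2 level was 12.9 to 14.1 in orexin B slices, against 12.2 to 13.4 in untreated slices. AIF1, a macrophage calcium-binding protein, had 0.63 ± 0.14, and C1QB, a chain of complement C1q, had 0.98 ± 0.24. C1QC, also among the 8, was well above background in the untreated channel on 3 of 4 arrays. The macrophage list did not follow the members over the arrays: its medians were 0.69, 0.18, 0.86 and 0.76 on arrays 1 to 4, so on array 1 it was high where the members' median was -0.35. Its part in the members' ratios was not tested.

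Of 9 neutrophil markers 2 were tested, S100A8 and S100A12, both calcium-binding proteins of myeloid cells. S100A8 had ratios of 0.17, 2.33, -2.01 and 0.96, and S100A12 had -0.09, 0.68, -0.11 and 0.60. S100A12 was well above background in the untreated channel on 3 of 4 arrays. The list's median was 0.32, and -0.08 without array 2. Both were highest on arrays 2 and 4, and the list's summed log2 level was 9.44 to 12.97 in orexin B slices, against 9.38 to 13.1 in untreated slices. Of 11 T and NK cell markers 3 were tested, with a median of 0.18. NKG7 and CD3G passed the brightness filter through the orexin B channel only. In the untreated channel they were well above background on 3 and 2 arrays. With brightness required in both channels on all arrays, only GZMB was left, and the median was -0.042. CD3D, CD4 and GZMA were well above background on no array.

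The 7 smooth muscle markers all had a mean below 0, with a median of -0.49 (-0.26 without array 4). Their medians were -0.01, -1.15, 0.19 and -1.24 on arrays 1 to 4, low on arrays 2 and 4, where the members' medians were high and orexin B RNA was in Cy3. Their summed log2 level was 18.0 to 19.5 in orexin B slices, against 18.9 to 19.8 in untreated slices. The 3 tested fibroblast markers followed the same order, with medians of -0.12, -0.81, 0.11 and -0.95 on arrays 1 to 4, and -0.43 over all (-0.27 without array 4). The part of either list in the members' ratios was not tested. The median was 0.31 for 3 endothelial markers (0.19 without array 2), -0.33 for 2 epithelial markers (-2.09 on array 3, and 0.26 without that array), and 0.20 for 3 conceptus trophoblast markers, of which IL1B2 is one; CDX2 and IFNG were well above background on no array.

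The named genes outside the members whose 4 ratios lay closest to the members' median on each array were DBF4, RAB5A, RNF19A, BTG3 and SNRPC. Their root mean square differences from it over 4 arrays were 0.157, 0.181, 0.182, 0.183 and 0.190, among 1930 genes compared. DBF4 had ratios of -0.39, 0.79, -0.0057 and 0.60, against members' medians of -0.35, 0.71, 0.14 and 0.86.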

How the data were processed

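RNA of orexin B and untreated myometrial slices was compared on 4 two-channel arrays. Per the file headers, the authors made the spot intensity values (median pixel brightness of spot and local background) with version 10.7.3.1 of Agilent Feature Extraction. Next to these the deposited scanner files give processed intensity values and, on a log10 scale, red over green. The deposited series table holds log2 ratios, with column medians of -0.27, -0.08, -0.20 and -0.09. For probes with a single spot, 100% of its values lay within 0.01 of the processed log2 ratio of orexin B over untreated. The dye fields in the labels set the direction; the labels' protocol names only orexin B in Cy5. The files name no genome build. No column was left unmapped.

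With limma 3.58.1 in R 4.3.3, background was corrected by normexp (offset 50) and ratios by loess, with weight 0 for control spots. Spots marked as outliers (31 to 138 per array) were dropped. Testing required a probe to be well above background in the orexin B channel, or in the untreated channel, of all 4 arrays, with unmarked spots on 3 arrays or more; 19876 of 43603 passed, and none was saturated. An intercept model was fitted with lmFit and eBayes, with two-sided p-values and Benjamini-Hochberg adjustment across every probe tested. Levels per channel are log2 intensity after loess and Aquantile. Accessions matched the Sscrofa11.1 RefSeq table for 6700 probes, 6599 of them with a symbol and 37004 probes without one; 2971 named genes had a probe. A gene is represented by its brightest tested probe. The fit was tested on simulated data.

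Members and lists were chosen with earlier results of these data known. Named genes were all members, up to 4 genes with the smallest p of each pathway list plus any with an unadjusted p under 0.05, up to 2 of each cell list, and the 5 genes nearest the members' median. Alternatives covered background, normalization, source of the values, brightness filter, dye, direction, slide, test, the probe of a gene and each array left out. Python 3.11.15 with matplotlib 3.10.9 drew the figures.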

Additional observations from a re-analysis of the deposited data

Results flagged for a closer look

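The 4 ratios of each member and of each other gene and list described, and the members' 4 levels in each channel, were examined for 1 array far from the others, by Dixon's test. Of 78 sets of 4 values, 4 were picked out, where chance picks about 3.9. The second IL6 probe had a log2 ratio of 0.87 on array 4, with the other arrays between -0.22 and -0.18. ADAM10 had a log2 ratio of 0.38 on array 2, with the other arrays between 0.020 and 0.026. The log2 level of CSF2 in orexin B slices was 11.9 on array 2, with the other arrays between 9.14 and 9.47. The log2 level of CSF3 in untreated slices was 10.66 on array 2, with the other arrays between 8.66 and 8.81.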

How the results depend on the processing

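Of the 9 members, TNF kept its direction under every alternative run. The other members changed sign with Cy5 over Cy3 on every array without turning by the labels. By construction that setting contrasts the dye orientations, and a constant effect of orexin B cancels in it. For the members it gives the same estimates as the dye term, so it is no separate check of their direction. Dye and any other difference between the arrays of each orientation cannot be told apart in it. The values were then CSF2 -0.50, CSF3 -0.42, ICAM1 -0.25, IL18 -0.13, IL1A -0.76, IL1B -0.54, IL6 -0.64 and NFKBIA -0.50, and -0.52, -0.11, -0.28 and -0.31 for the second probes of CSF3, IL18, IL6 and NFKBIA. The members' median was then -0.50, 1 member had a mean above 0, and 0 were higher at an unadjusted p under 0.05. IL6, CSF2 and NFKBIA were lower at that threshold (adjusted p = 0.593 each, limma), as were 815 of 19876 probes. Other genes gave ADAM10 -0.091, ADAM17 -0.050, AIF1 -0.024, ANXA1 -0.34, BTG3 -0.35, CTSB -0.17, CXCL8 -1.22, DBF4 -0.45, IL10 -0.038, IL1B2 -0.16, IL6ST -0.24, MAP3K7 -0.28, NFKB1 -0.12, RAB5A -0.30, RELA 0.071, RNF19A -0.39, S100A12 -0.37, S100A8 -1.28, SNRPC -0.34, STAT3 -0.47, TNFAIP3 -0.43, TNFRSF1B -0.17, TNFSF10 -0.76, TNIP1 -0.044 and TRAF6 -0.078. With median centring in place of loess, IL6 was -0.11 and its second probe -0.056; the cause was not tested.

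The number of members higher at an unadjusted p under 0.05 was 3 as reported. It was 1 with Agilent's processed signals and the nearly identical deposited series table, and 1 with median centring. On the shared slide it was 6, and it was 6 with slide as a random block. That block had an estimated correlation of -0.26, which narrows the errors. Over all probes, at this threshold, 172 were higher and 5 lower with median centring (97.2% higher, against 55.8% with loess), 1339 and 1022 with a dye term, 2415 and 1865 with the slide block, and 1095 were lower with no brightness filter. Probes of 1 sign on every array numbered 954 above and 123 below 0 with median centring, 2718 and 2472 with no filter (more probes tested), and 2813 and 2369 on the shared slide (fewer arrays). In none of these settings did limma call a probe at an adjusted p of 0.05, nor in the unmoderated test, which had 660 higher and 535 lower at an unadjusted p under 0.05, against 856 and 678.

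With 1 array left out, means ranged for CSF2 from 0.11 to 0.55, CSF3 0.27 to 0.63, ICAM1 0.35 to 0.55, IL18 -0.075 to 0.29 (second probe -0.032 to 0.29), IL1A 0.59 to 1.39, IL1B 0.47 to 1.52, IL6 -0.41 to 0.30 (second probe -0.20 to 0.16), NFKBIA 0.11 to 0.62, TNF 0.022 to 0.13, IL10 -0.0032 to 0.54, ITGB2 -0.045 to 0.12, RELA -0.17 to 0.051 and S100A8 -0.29 to 1.15. The members' median ranged from 0.27 to 0.55, members above 0 from 7 to 9, and members higher at an unadjusted p under 0.05 from 0 (without array 4) to 6 (without array 1). Probes at that threshold ranged from 452 to 1071 higher and 274 to 851 lower, and probes of 1 sign from 2679 to 3454 above and 2149 to 2811 below 0. Each ratio pairs both RNAs on an array, so the test over 4 ratios is itself the paired analysis. The number of arrays limits every value. A constant dye effect cancels in means over 4 arrays, with 2 in each orientation, but not in means that leave out 1. In that balanced design a dye term cannot change the means over 4 arrays, so their staying the same is no test of the cancelling.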
